A study of Homo sapiens with 29 samples.

Results

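Among 166696 regions of accessible chromatin obtained by merging 29 ATAC-seq peak lists of 22Rv1 cells, 1024 had a peak in all 15 lists of parental cells and in none of the 14 lists of engineered cells. These parental-only regions, called members in the plots, made up 0.614% of all regions and 1.88% of the 54404 regions that all 15 parental libraries held. They were chosen by the presence or absence of a called peak in these same lists, so that difference is a description and supports nothing further. The opposite set, held by all 14 engineered and no parental library, counted 169 regions, 0.101% of all. Absence means only that the authors' list has no peak there, since accessible sites with too few reads are not called.

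ATAC-seq uses a transposase that inserts sequencing adapters into DNA not wrapped in nucleosomes, so that peaks of reads mark promoters, enhancers and other regulatory elements. FOXA1 is a pioneer transcription factor that binds forkhead motifs in closed chromatin and helps to open enhancers used by the androgen receptor in prostate cells. PHF5A is a subunit of the SF3B complex, the part of the splicing machinery that Pladienolide B (PladB) binds, and its Y36C form is known to weaken the action of PladB. A region that is open in one derivative of a cell line and not called in another can differ in chromatin, in the number of DNA copies, or in how deeply and by which pipeline the libraries were sequenced and processed. Copy number was not measured in these data.

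22Rv1 is a human prostate cancer cell line, and all libraries came from it. Parental cells had been treated for 3 h with 0.1% DMSO, with 20 µM WX-02-23, with 20 µM WX-02-43, or with PladB at 10 nM or 100 nM, and each of these 5 groups held 3 libraries. WX-02-23 and WX-02-43 are stereoprobes, small molecules that differ in the arrangement of atoms in space. Every engineered cell overexpressed Y36C-PHF5A and carried either WT-FOXA1 (8 libraries) or C258A-FOXA1 (6 libraries) under doxycycline (Dox) control. With Dox, each line was treated for 3 h with 0.1% DMSO, 20 µM WX-02-23 or 100 nM PladB, with 2 libraries per group. A further 2 libraries came from the WT-FOXA1 line without Dox, in DMSO. The engineered lines therefore differ from parental cells in the PHF5A transgene, the FOXA1 transgene and the handling that made them, and the labels do not say whether a line is 1 clone. The labels also do not say whether replicates were separate cultures.

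Peak names show that the 15 parental lists were made in a different processing folder from the 14 engineered ones. Cell line and processing batch therefore cannot be told apart for any value that sets parental beside engineered lists. Parental lists held 82538 to 98193 peaks, and engineered lists 62832 to 92658. With no read totals at hand, an estimate of the peak caller's genome background served as a relative depth. This estimate was the low end of the local backgrounds worked out from the deposited values of each list's peaks. It was 0.662 to 1.502 reads per base in parental and 0.546 to 1.26 in engineered libraries. The lowest summit called in a list held 5 to 8 reads in parental and 5 to 7 reads in engineered libraries. Marker promoters of prostate and other cell types, and genes at the positions below, were not analysed here. All coordinates are of human genome build hg19 and count from 1.

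The regions of parental cells formed a graded series when ordered by how many engineered libraries also held them. All 14 engineered libraries held 35901 of the 54404 regions, or 66.0%. A further 4008 were held by 13 engineered libraries. The count per step then declined to a low of 667 regions at 2 engineered libraries, and stood at 708 at 1 engineered library. With 1024 regions, the step at 0 engineered libraries was higher than each of the steps from 1 to 8.

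**Figure D1:**
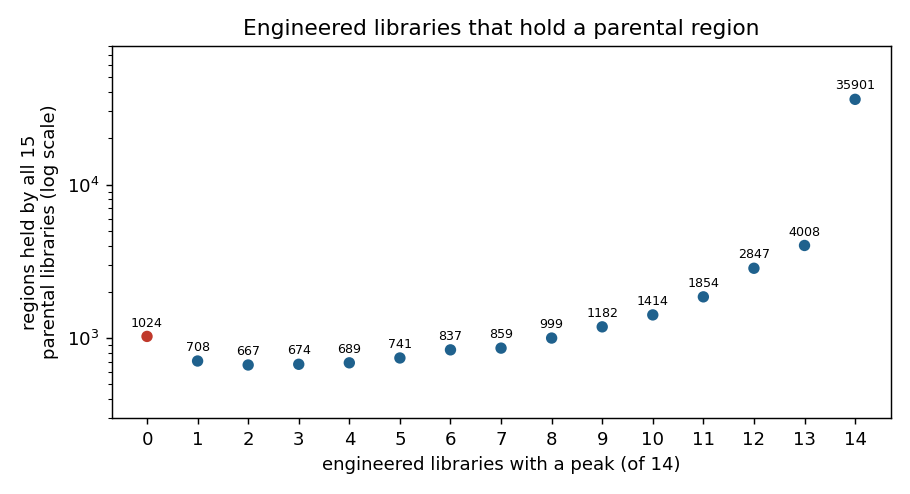
Number of regions held by all 15 parental libraries (vertical axis, log scale) against the number of the 14 engineered libraries that also have a peak there (horizontal axis). Each point is a count of regions, and the red point at 0 marks the 1024 parental-only regions; counts are lowest at 2 engineered libraries (667) and highest at 14 (35901).

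On one side of the rule, the regions just outside were close in strength to those inside. The 708 regions held by all 15 parental and exactly 1 engineered library had a median of 16 reads at the summit in parental lists, the same as the parental-only regions. Their median strength, expressed as the percentile of the authors' p-value within each parental list and averaged over the 15 lists, was 40.9 against 40.3 for the parental-only regions. On the other side, the 598 regions held by 14 parental and no engineered library were weaker, with a median percentile of 30.0 and 13 summit reads. For 93 of these 598, the library without a peak was PladB 100 nM replicate 3, which had the lowest background of the parental libraries. For another 85 it was WX-02-43 replicate 3, which had the highest.

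Single engineered libraries decided whether a region stayed outside by very unequal numbers. The sole engineered holder was WT-FOXA1 PladB replicate 2 for 88 of the 708 regions and WT-FOXA1 WX-02-23 replicate 2 for 7 of them. These libraries had lists of 88735 and 62832 peaks. The WT-FOXA1 libraries without Dox were the sole holder of 84 and 78 regions, although their lists held only 69814 and 67195 peaks. Counts like theirs were otherwise seen only in libraries with lists of 88140 or more peaks, WT-FOXA1 DMSO replicate 1 (86 regions), WT-FOXA1 PladB replicate 2 (88) and C258A-FOXA1 WX-02-23 replicate 2 (87).

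Of the 54404 regions, 1524 had a peak in none of the 8 WT-FOXA1 libraries and 2219 had one in none of the 6 C258A-FOXA1 libraries. The 1024 parental-only regions are the overlap, 67.2% of the first set and 46.1% of the second. Regions that separated the lines completely were few. A peak in all C258A-FOXA1 and no WT-FOXA1 library was found at 5 regions, and the reverse at 6. Complete splits between libraries without and with Dox were also counted. Both libraries without Dox and none of the 12 with Dox held 32 of the 54404 regions. The reverse, absence from both libraries without Dox and presence in all 12 with Dox, applied to 191.

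Parental-only regions were mostly weak to moderate peaks in the parental lists. Their mean percentile had a median of 40.3, quartiles of 32.7 and 50.1, and a range from 12.1 to 93.6. The median was 68.2 over all 54404 regions held by every parental library and 78.9 over the 35901 held by all 29 libraries. In each of the 15 parental lists the median percentile of the parental-only regions, 36.7 to 47.6, was below that of all 54404 regions, 66.2 to 71.9. The authors' fold enrichment over the local background had a median of 7.07 at parental-only regions and 9.41 over the 54404.

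**Figure D2:**
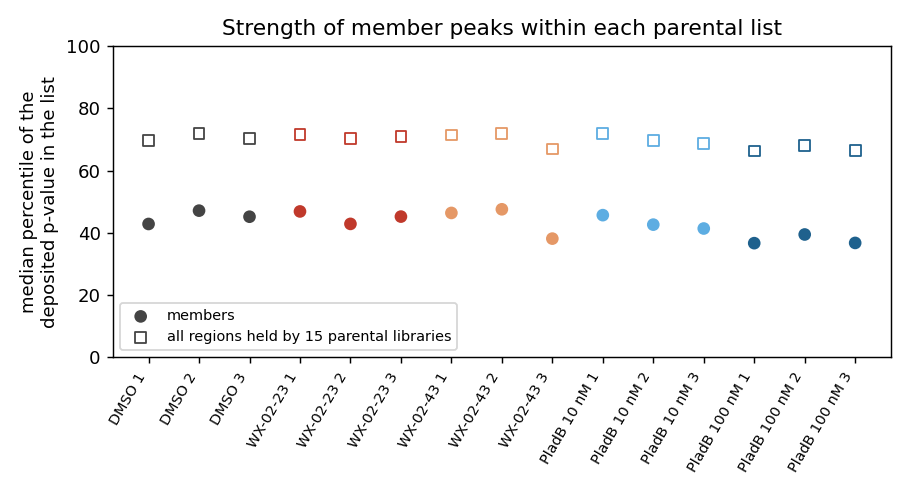
Median percentile of the deposited p-value (vertical axis, 0 to 100 within a list) in each of the 15 parental libraries (horizontal axis, coloured by treatment). Filled circles are the 1024 parental-only regions and open squares all 54404 regions held by every parental library; the circles lie between 36.7 and 47.6, and the squares between 66.2 and 71.9.

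The share of regions that were parental-only was lower in each stronger class. When the 54404 regions were ordered by mean percentile and divided into 10 equal classes, 8.82% of the weakest class were parental-only, and this class alone held 480 of the 1024. The share was 4.43% in the next class and 2.52% in the one after. It was 1.03% in the fifth class and 0.239% in the sixth. The 2 strongest classes held 3 parental-only regions and none. Only 24 of the 1024 (2.34%) reached the 70th percentile, against 47.3% of the 54404.

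Reads at the summit gave the same picture on a scale with a known unit. A whole number of summit reads could be solved from the deposited fold and p-value for 100% of peaks in every list. The median over parental-only regions was 16 reads, with quartiles of 14 and 21, against 32 over all 54404 regions and 44 over regions held by all 29 libraries. Scaled to the depth of each engineered library, all 1024 would have had more reads than the lowest summit called there. The number was 1022 after a further calibration on the 35901 regions held by all 29 libraries. A margin of at least 2 times the lowest called summit in all 14 engineered libraries was reached by 323 of them. The caller sets its threshold against the local background, so the lowest called summit is a lower limit for a call.

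At the summits of parental-only regions, the local background used by the peak caller was low. This local background had a median of 1.28 times the genome background of the library, against 2.44 times over the 54404 regions. It equalled the genome background at 32.9% of parental-only regions and at 10.5% of all 54404. A group of 82 (8.01%) had a local background of at least 5 times the genome level, against 23.3% of all. The local background can include reads of the peak itself, and no comparison with equally weak regions was made.

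Parental-only regions were narrower than the 54404 as a whole, and about as narrow as regions held by few engineered libraries. The merged region had a median width of 469.5 bp, with quartiles of 382 and 595 bp and a range of 186 to 1297 bp, against 660 bp over the 54404. Part of this gap is set by the rule, since regions without an engineered peak are merged from parental lists alone. Peak width within the parental lists, which merging does not affect, had a median of 289.5 bp against 430 bp. It was 296, 298, 294 and 302 bp at regions held by 1, 2, 3 and 4 engineered libraries, so the low width is not particular to the parental-only regions. A single peak per list covered 76.7% of the parental-only regions and 65.2% of the 54404. Summit positions of a region spread over a median of 139.5 bp among the 15 libraries, against 111 bp. At regions held by exactly 1 engineered library these values were 72.9% and 143.5 bp, so neither is particular to the parental-only regions. Peak width and strength moved together, with a Spearman rho of 0.516 across the 1024 regions and 0.773 across the 54404. These are descriptions across regions of the same libraries, in which width and p-value both come from the same reads.

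The widest and narrowest parental-only regions show this range. On chromosome 4, the region from 25812390 to 25813686 spanned 1297 bp, with 13, 21 and 26 summit reads as the lowest, median and highest of the 15 libraries. The next widest lay on chromosome 2 from 95971178 to 95972419 (1242 bp) and on chromosome 12 from 23625151 to 23626385 (1235 bp). In the chromosome 2 region the summit moved by 1021 bp among libraries and the median peak was only 247 bp wide, so its width came from peaks at different places. The narrowest, on chromosome 17 from 73777033 to 73777218, spanned 186 bp. It had a median of 63 summit reads but a median fold of only 3.29, and the next region held by all parental libraries began 0.099 kb away. The other 2 narrowest lay on chromosome 2, from 111527940 to 111528158 and from 238496715 to 238496937, with medians of 32 and 41 summit reads and median folds of 4.56 and 3.76. All 3 had folds below the median of 7.07 over parental-only regions, and more reads than their median of 16.

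A few parental-only regions were among the stronger peaks of the parental lists. The strongest lay on chromosome 8 from 141347331 to 141348124, with a mean percentile of 93.6. It held 61, 64 and 74 summit reads in DMSO, 69, 60 and 50 in WX-02-23, 58, 75 and 70 in WX-02-43, 72, 66 and 59 in PladB 10 nM, and 51, 49 and 51 in PladB 100 nM. Every parental library thus had at least 49 reads. The lowest summit called anywhere in an engineered list held 5 to 7 reads, which is not the threshold at this site. Engineered reads at this region were not measured. The next regions held by all parental libraries, 33.4 kb to the left and 55.6 kb to the right, were held by all 14 engineered libraries. The nearest engineered peak lay 14.7 kb away.

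The second strongest lay on chromosome 12 from 104697047 to 104697717, with a mean percentile of 91.7. It held 53, 60 and 57 summit reads in DMSO, 62, 57 and 54 in WX-02-23, 56, 53 and 50 in WX-02-43, 68, 51 and 56 in PladB 10 nM, and 51, 57 and 50 in PladB 100 nM. Raw reads lay within 50 to 68, but divided by the background of each library they ran from 33.3 in WX-02-43 replicate 3 to 79.4 in PladB 100 nM replicate 2. Its neighbours 8.73 kb to the left and 57.4 kb to the right were held by 12 and 5 engineered libraries. The third, on chromosome 17 from 75447362 to 75448531, had a mean percentile of 91.2 and 52, 62 and 77 reads as the lowest, median and highest. Engineered peaks were sparse around it, with 3 engineered libraries at the left neighbour and 12 at the right, and 21.0 kb to the nearest engineered peak.

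Chromosome 17 held 2 more of the 10 strongest, from 1454120 to 1454763 and from 4150993 to 4151926, each with a median of 46 summit reads. On chromosome 7, the region from 2146585 to 2146988 had 41, 65 and 74 reads as the lowest, median and highest. It stood 0.528 kb from a region that all 14 engineered libraries held, and the nearest engineered peak was 0.706 kb away. The region on chromosome 12 from 56393368 to 56394025 had the most reads, with 68, 82 and 90, but a median fold of 5.68. Its next regions, 1.78 kb to the left and 6.39 kb to the right, were held by all 14 engineered libraries. The last 2 lay on chromosome 1 from 10702055 to 10702987 (median 54 reads) and on chromosome 6 from 5458035 to 5458758 (median 37 reads).

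**Figure D3:**
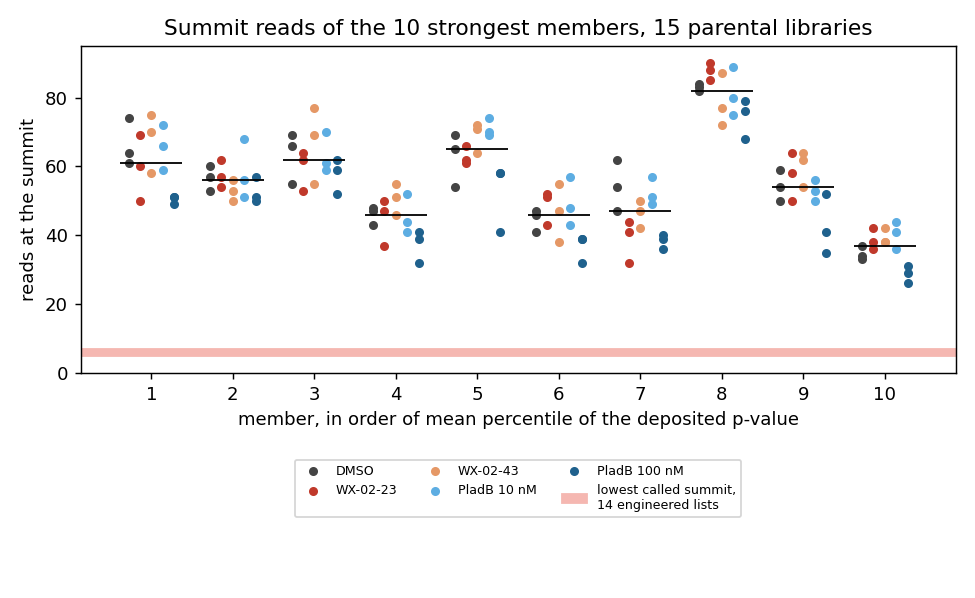
Reads at the summit (vertical axis) of the 10 strongest parental-only regions (horizontal axis, in order of mean percentile) in the 15 parental libraries. Each point is 1 library coloured by treatment, and black lines are medians. The pink band spans the lowest summits called anywhere in the 14 engineered lists (5 to 7 reads), which are not the thresholds at these sites. All points lie between 26 and 90 reads.

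None of the 10 strongest had another parental-only region as its neighbour among the 54404. At least 1 neighbour was held by all 14 engineered libraries for 8 of them, and both neighbours for 4. Just outside the rule, the strongest regions held by 1 engineered library had similar values. On chromosome 2, the region from 237764742 to 237765457 had a mean percentile of 86.6 and was called in C258A-FOXA1 WX-02-23 replicate 2 alone. Those on chromosome 9 from 110359870 to 110360613 (85.8) and on chromosome X from 13219879 to 13220317 (82.8) were called in C258A-FOXA1 PladB replicate 1 and C258A-FOXA1 DMSO replicate 1. The strongest region with 14 parental and no engineered peak, on chromosome 12 from 82267861 to 82268346, reached 60.9. At the weak end inside the rule, the region on chromosome 6 from 33689281 to 33689688 had a mean percentile of 12.1 with 10, 15 and 22 reads.

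Treatment of the parental cells left the parental-only regions about as far from the DMSO libraries as other regions. For this, each library's p-values were ranked among the same 54404 regions, on a scale of 0 to 100. The median rank of the parental-only regions was 14.8 ± 0.7 (SD, n = 3) in DMSO, 15.1 ± 0.5 (SD, n = 3) in WX-02-23, 14.7 ± 0.4 (SD, n = 3) in WX-02-43, 14.1 ± 1.1 (SD, n = 3) in PladB 10 nM and 14.9 ± 0.3 (SD, n = 3) in PladB 100 nM. These group values overlapped within 1 SD, and no test was run over regions chosen with results known. In WX-02-23 against DMSO, 127 parental-only regions (12.4%) ranked higher in all 3 libraries than in any DMSO library, against 11.3% of the 54404. Another 131 (12.8%) ranked lower in all 3, against 11.2%. The shares for the other treatments also lay near those of all regions.

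For WX-02-43, 65 parental-only regions (6.35%) ranked higher and 61 (5.96%) lower without overlap, against 6.28% and 6.13% of the 54404. The counts were 59 (5.76%) and 76 (7.42%) for PladB 10 nM, against 6.73% and 6.65%. For PladB 100 nM they were 73 (7.13%) and 78 (7.62%), against 8.03% and 8.09%. All 4 treatments share the same DMSO libraries. PladB 100 nM had the lowest background of the parental groups, 0.705 ± 0.038 (SD, n = 3) in reads per base, and its median of 13.7 ± 0.6 summit reads (SD, n = 3) at parental-only regions was the lowest of the 5 groups.

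Among the 10 strongest regions, the one on chromosome 22 from 25447888 to 25448428 varied most with WX-02-23. It had 47, 62 and 54 summit reads in DMSO and 41, 44 and 32 in WX-02-23. Its rank among the 54404 regions was 80.7 ± 4.5 (SD, n = 3) in DMSO and 59.8 ± 11.3 (SD, n = 3) in WX-02-23, with no overlap between the libraries. WX-02-43, the stereoisomer, gave 42, 47 and 50 reads and a rank of 67.8 ± 5.6 (SD, n = 3), also below every DMSO library and overlapping the WX-02-23 values. With PladB the ranks were 80.9 ± 1.9 (SD, n = 3) at 10 nM and 73.6 ± 6.2 (SD, n = 3) at 100 nM, both overlapping DMSO. This region was singled out after its values were seen, and it carries no test.

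The second strongest region, on chromosome 12 from 104697047, stood apart from DMSO in 3 of the 4 treatments, by smaller steps. Its rank was 87.1 ± 0.5 (SD, n = 3) in DMSO, and every library was lower in WX-02-23, at 85.2 ± 0.8 (SD, n = 3), and in WX-02-43, at 77.6 ± 5.1 (SD, n = 3). Every PladB 100 nM library was higher, at 90.6 ± 2.1 (SD, n = 3), while PladB 10 nM overlapped DMSO at 89.2 ± 3.6 (SD, n = 3). The strongest region, on chromosome 8, was lower without overlap in WX-02-23, at 85.0 ± 4.9 (SD, n = 3) against 91.5 ± 3.8 (SD, n = 3) in DMSO. The chromosome 7 region from 2146585 was higher in PladB 10 nM, at 85.3 ± 1.6 (SD, n = 3) against 75.5 ± 7.6 (SD, n = 3). The chromosome 12 region from 56393368 was lower in WX-02-43, at 61.7 ± 3.8 (SD, n = 3) against 70.3 ± 2.7 (SD, n = 3). Over the 54404 regions, 11.2% were lower without overlap in WX-02-23 and 6.13% in WX-02-43. The shares higher without overlap were 6.73% in PladB 10 nM and 8.03% in PladB 100 nM.

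Most parental-only regions stood alone, though they were next to each other more often than their share of all regions. In so small a set, 1.88% of the 54404, most would stand alone without strong clustering. Of the 1024, 947 (92.5%) stood alone among the 54404 regions in order along the chromosome. The other 77 formed 34 pairs and 3 runs of 3, and no run was longer than 3. A parental-only region was the next neighbour of another in 3.91% of cases, against 1.88% over all 54404. This raised share was lower further out, though it did not fall at every step. It was 2.25% to 2.85% from the sixth to the tenth neighbour on either side. The share of next neighbours held by all 14 engineered libraries was 57.9%, against 66.0% overall. Parental-only regions held another of their kind within 10 kb in 12 cases (1.17%), within 100 kb in 139 (13.6%) and within 1000 kb in 602 (58.8%). These counts were not compared with those of other sets of equal size, so they do not separate clustering from density.

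**Figure D4:**
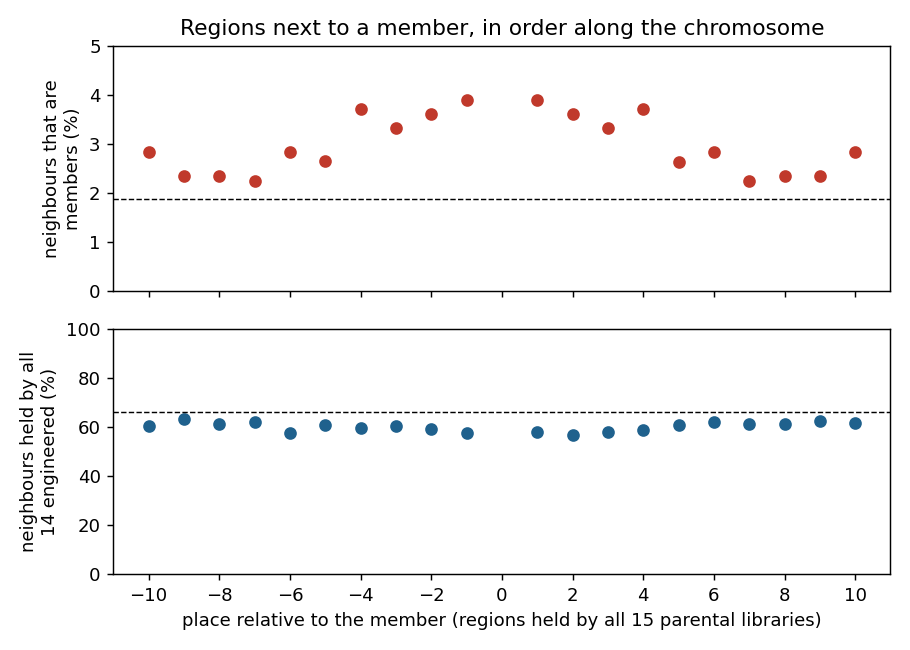
Upper panel, percent of neighbouring regions that are parental-only; lower panel, percent held by all 14 engineered libraries; horizontal axis, place among the 54404 regions relative to a parental-only region, up to 10 on each side. Dashed lines give the shares over all 54404 regions (1.88% and 66.0%); the next neighbours stand at 3.91% in the upper panel and near 58% in the lower.

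Most of them had an engineered peak within 10 kb. At least 1 next neighbour was held by all 14 engineered libraries for 815 of the 1024 (79.6%), and both for 371 (36.2%). Taken singly, next neighbours were held by all 14 less often than regions of all parental libraries in general, 57.9% against 66.0%. The counts for at least 1 and for both neighbours were not taken for other regions. The nearest peak of any engineered list lay at a median of 6635.5 bp, within 10 kb for 640 (62.5%) and within 500 bp for 59 (5.76%). Distances of this kind were not taken for other regions, so they are not shown to be particular to the parental-only ones. Only 4 had no engineered peak within 100 kb, and the largest distance was 140.7 kb.

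The most isolated parental-only region lay on chromosome 2 from 199523826 to 199524575, 462 kb from the next region held by all parental libraries. It had 5, 14 and 17 summit reads as the lowest, median and highest, and an engineered peak stood 1.31 kb away. The next most isolated lay on chromosome 10 from 107901246 to 107902141 and on chromosome 2 from 126918580 to 126918874, with medians of 12 and 11 reads. At the other extreme, 3 regions lay 0.049 to 0.052 kb from a neighbour. These were on chromosome 3 from 43459619 to 43460009, on chromosome 6 from 143017834 to 143018217 and on chromosome 12 from 125312352 to 125312750. Those near neighbours were held by 4, 3 and 14 engineered libraries.

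The 3 runs were spread over stretches with few but not zero engineered peaks. On chromosome 2 from 65935870 to 66196613, 3 parental-only regions followed each other over 260.7 kb, with 26, 12 and 24 median summit reads. That stretch held 7 peaks of 6 engineered libraries, and its flanking regions were held by 14 and 10 engineered libraries. The run from 221865989 to 222170169 on the same chromosome covered 304.2 kb, with 18, 20 and 20 median reads. It held 15 peaks of 10 engineered libraries, and its flanks were held by 7 and 4 of them. On chromosome 9 from 122174613 to 122296131, the run covered 121.5 kb, with 17, 13 and 12 median reads. It held 4 peaks of 4 engineered libraries between flanks that all 14 held. Median reads in the 9 regions thus ran from 12 to 26, around the median of 16 over all parental-only regions, and each stretch still carried engineered peaks.

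Over the 37 pairs and runs together, the span had a median of 43.0 kb and a range of 0.735 to 825.3 kb. No engineered library had a peak inside 16 of the spans, the longest of which covered 71.3 kb on chromosome 1 from 177245108 to 177316441. At least 1 flank was held by all 14 engineered libraries for 27 of the 37, and both flanks for 8. With all 29 lists set to the same length, the rule gave 469 regions and no run of 3, and how many of these are among the 1024 was not counted.

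No window of 1 Mb consisted mostly of parental-only regions. Of 2679 windows with at least 5 of the 54404 regions, 1897 held no parental-only region, 604 held 1, 136 held 2, 36 held 3 and 6 held 4 or more. The highest share was 4 of 9 (44.4%), on chromosome 12 between 17 and 18 Mb, followed by 3 of 7 (42.9%) on chromosome 3 between 76 and 77 Mb. In 15 windows no region was held by all 14 engineered libraries. The lowest mean number of engineered libraries per region in a window was 2.8, over 5 regions on chromosome 5 between 144 and 145 Mb, of which 2 were parental-only.

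By chromosome, the share of the 54404 regions that were parental-only ran from 0.986% on chromosome 19 (24 of 2435) to 2.78% on chromosome 12 (89 of 3200). Chromosome 12 carried 8.69% of the parental-only regions and 5.88% of the 54404. Outside it, 935 regions or 1.83% were parental-only. The 89 regions there were of the same strength as the others, with a median percentile of 41.6 against 40.2 and 17 against 16 summit reads. Chromosome 12 was singled out after the values were seen. Among chromosomes with at least 200 regions held by all parental libraries, it was second rather than first when the lists were set to the same length or filtered to a q-value of 1e-05.

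Chromosome 12 also differed between parental and engineered lists at sites that are not parental-only. It held 5.67% to 5.89% of the peaks of each parental list and 5.05% to 5.26% of each engineered list, without overlap. Chromosome 10 was the other of the 24 chromosomes whose shares did not overlap, with 4.41% to 4.52% in parental and 4.24% to 4.39% in engineered lists. Of its regions held by all 15 parental libraries, 1.48% were parental-only, below the 1.88% over all chromosomes. At the 35901 regions held by all 29 libraries, summit reads were divided by the median of the library, and the median log2 value was taken per chromosome. On chromosome 12 this was 0.19 to 0.24 in the 15 parental libraries and -0.08 to 0.00 in the 14 engineered libraries. The other 4 chromosomes without overlap, 16, 17, 19 and 22, were higher in the engineered libraries, with chromosome 19 at 0.19 to 0.31 in parental and 0.53 to 0.65 in engineered libraries.

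**Figure D5:**
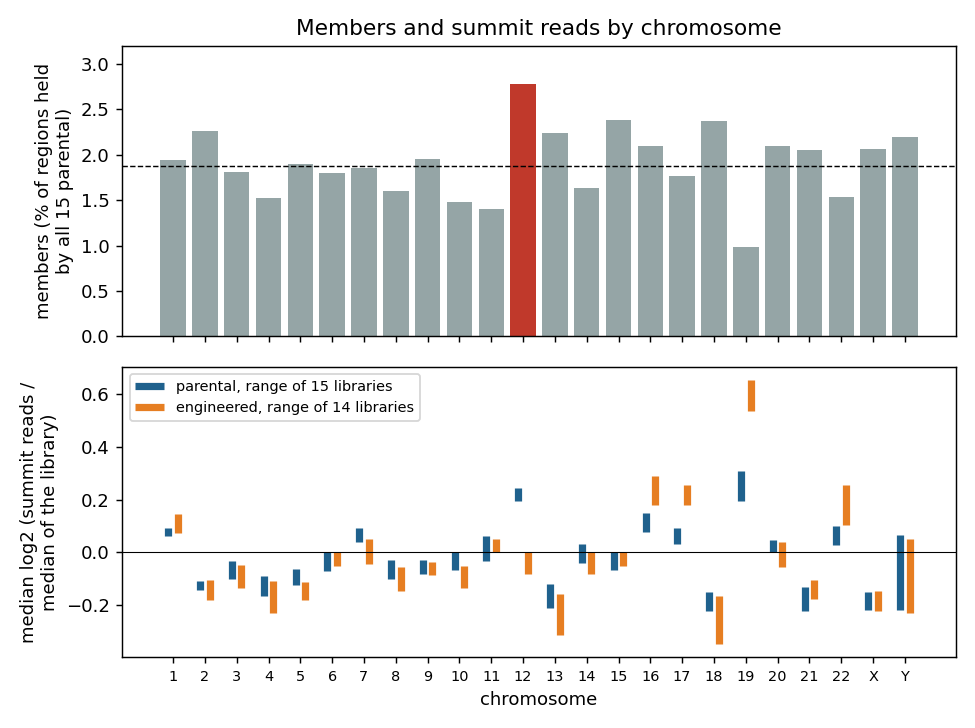
Upper panel, percent of the regions held by all 15 parental libraries that are parental-only, by chromosome, with the share over all chromosomes (1.88%) dashed; lower panel, median log2 of summit reads over the library median at the 35901 regions held by all 29 libraries, as the range over 15 parental (blue) and 14 engineered (orange) libraries. Chromosome 12 has the highest share (2.78%), and its engineered range (-0.08 to 0.00) lies below its parental range (0.19 to 0.24).

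The lower reads on chromosome 12 extended over most of its length. The median log2 difference, engineered minus parental, was 0.09 over the 35901 regions and -0.15 over those on chromosome 12, the one chromosome below 0. In windows of 10 Mb with at least 20 such regions, 13 of 14 on chromosome 12 were below 0, against 81 of 285 (28.4%) elsewhere. Values there ran from -0.29 between 10 and 20 Mb to 0.05 between 50 and 60 Mb. Of the 10 lowest windows of the genome, 9 lay on chromosome 12. Among the 14 windows, the share of parental-only regions was highest at 6.76% (15 of 222) between 10 and 20 Mb. It was lowest at 0.621% (2 of 322) in the first 10 Mb, where the median log2 difference was -0.14. Share and reads did not always go together. Between 80 and 90 Mb the difference was -0.23 with a share of 0.709%, and between 120 and 130 Mb it was -0.04 with 3.97%. Across chromosomes, the share and the median log2 difference had a Spearman rho of -0.35. A lower number of copies, a change in chromatin and the processing batch cannot be told apart in these values.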

How the data were processed

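Libraries were prepared with an ATAC-seq kit (per the labels' protocols). Per the submitters' processing notes, Bowtie2, MACS2 and build hg19 were used. For their versions and options, duplicate removal and read shifting, nothing is stated in the sources used here. The authors deposited 1 peak list per library, with a score (10 times the −log10 q-value), a fold enrichment over local background (a ratio), the −log10 p-value, the −log10 q-value and the summit's distance from the peak start. The lowest −log10 q was just above 2 in every deposited list, which is a q-value of 0.01. Peaks were at least 150 bp wide. These values describe and rank peaks within a list.

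Groups came from the labels. Peaks of chromosomes 1 to 22, X and Y were merged when overlapping or touching, and an overlap of 1 bp with any peak of a library counted as held. Summit reads are the whole number k that fits the deposited fold, (k + 1) over (background + 1), and the Poisson p-value within 0.002 in −log10 p. Local backgrounds lay on steps of 0.015. The genome background of a library was estimated from the low end of its local backgrounds. Percentiles rank the p-value within a list. A run is 3 or more parental-only regions in a row among those held by all parental libraries. The scripts were tested on simulated data.

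Regions named by position were the 10 strongest, the longest runs, the 3 widest, narrowest, most isolated and least isolated, and the 3 strongest just outside the rule on each side. The weakest regions inside the rule, chromosome 12 and the chromosome 22 region were added after values were seen. The regions and this rule were chosen with earlier results of these data known. No test was made over them, since the rule fixes the difference between the lines. Sequence, motif, gene and cell type marker analyses were planned and not analysed here, because no hg19 genome or annotation was used here. Alternatives were a stricter q-value, lists of equal length, 50% coverage, summit windows, 1 library allowed to differ, another merging gap, single lines, DMSO libraries alone, regions from parental lists alone, and each library left out. Computations ran in Python 3.11.15 with pandas 2.3.3, numpy 2.4.6, scipy 1.17.1 and matplotlib 3.10.9.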

Additional observations from a re-analysis of the deposited data

Results flagged for a closer look

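Peaks on the mitochondrial chromosome, which the regions above leave out, appeared in one set of lists only. The 14 engineered lists held 35 such peaks, 2 to 4 in each, and the 15 parental lists held 0. Cell line and processing batch cannot be told apart in this count.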

How the results depend on the processing

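The number of parental-only regions, 1024, moved to 469 with lists of equal length, 2697 with 1 library allowed to differ, 2219 with the C258A-FOXA1 line alone and 5868 with DMSO libraries alone. As a percent of regions held by all parental libraries, 1.88% moved to 1.19%, 4.46%, 4.08% and 8.15% in the same settings, to 3.49% with 50% of a region covered and to 2.80% with the WT-FOXA1 line alone. Runs of 3 or more, 3 in number, moved to 0 with equal lists, 15 with 1 library allowed to differ, 7 with either engineered line alone and 85 with DMSO libraries alone. The median width of 469.5 bp moved to 496 bp at a q-value of 1e-05, 544 bp with equal lists, 555 bp with 50% coverage, 336 bp with summit windows, 490.5 bp with peaks up to 200 bp apart merged and 315 bp with DMSO libraries alone. Fewer libraries, or a rule with an exception, admit more regions by construction. The cause of the other moves was not tested. A count was taken as moved beyond a factor of 1.5, and a width beyond 17.0 bp. The percent was taken as moved outside its 95% exact binomial bounds, 1.77% to 2.00%. These bounds served only as a limit, since regions are not replicates.

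Leaving out each of the 29 libraries in turn gave 1031 to 1118 regions, 1.90% to 2.04%, 3 to 4 runs and a median width of 460 to 473 bp. By the limits above, the percent moved in 8 of these 29 settings, while the number of regions, the runs and the width stayed the same. Among chromosomes with at least 200 regions held by all parental libraries, chromosome 12 had the highest share each time, at 2.78% to 3.16%. The longest run was 3 or 4 regions. Restriction to chromosomes 1 to 22, X and Y equals the main setting by construction. Regions merged from parental lists alone, an alternative chosen after seeing the data, gave 1024 regions and 1.88%. No paired analysis was possible because these results come from no test, and replicate numbers only name samples. Regions of fewer than about 5 reads could not be called in any list.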
